A study of Mus musculus with 5 samples.

Results

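The 9 genes described here code for the 3 D-type cyclins (Ccnd1, Ccnd2, Ccnd3), 4 inhibitors of cyclin-dependent kinases (Cdkn1a, Cdkn1b, Cdkn1c, Cdkn2c) and 2 pocket proteins (Rb1, Rbl2). They were taken by symbol from the 32285 genes of the deposited feature tables, and each symbol matched 1 gene. They were followed across 5 single-cell RNA libraries of 3T3-L1, a mouse fibroblast line that turns into adipocytes in culture. Cells were grown to confluence, held there for 2 days and then induced by a mixture of dexamethasone, insulin and the phosphodiesterase inhibitor IBMX, after which insulin alone was continued. The day 0 library came from cells that had received neither the inducers nor polymer. The day 3 and day 6 libraries came from induced cells, untreated or given P-G3, a PAMAM polymer, added at 10 μg/mL together with the inducers on day 0. With 5 groups of 1 library each, all from a single cell line, no difference has a replicate check, no test between groups was made, and every interval covers counting error only.

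D-type cyclins bind CDK4 and CDK6, and the complexes phosphorylate RB1 and its relatives, which frees E2F factors to switch on genes of DNA replication. Mitogens raise D cyclins, and the 3 of them are made in different proportions in different tissues. Inhibitors of the INK4 family, to which p18 (Cdkn2c) belongs, bind CDK4 and CDK6 directly, whereas those of the CIP/KIP family, p21 (Cdkn1a), p27 (Cdkn1b) and p57 (Cdkn1c), bind cyclin-CDK complexes. The pocket protein p130 (Rbl2) holds E2F-dependent genes silent in resting cells as part of the DREAM complex. Induced 3T3-L1 cells are known to divide again in a clonal expansion before they leave the cell cycle and fill with lipid.

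Levels are UMIs (unique molecular identifiers, 1 per captured RNA molecule) summed over the cells of a library, per 1000000 UMIs of that library (CPM). The libraries held 3210 cells (day 0), 3596 and 3893 cells (day 3, untreated and P-G3) and 2468 and 3546 cells (day 6, untreated and P-G3), with 88432894 to 179221992 UMIs. Of the deposited barcodes, the filter kept 97.4% to 98.9% on days 0 and 3, but 46.7% of the untreated and 62.0% of the P-G3 barcodes of day 6. Library pairs shared 4 to 7 cell barcodes. The 18 adipocyte genes of a fixed list had a summed level of 48.4 CPM before induction, and of 1614 (untreated) and 2369 CPM (P-G3) at day 3 and 8619 and 9529 CPM at day 6. Markers of immune and endothelial cells summed to at most 3.41 and 1.36 CPM in any library. Of the epithelial markers, the keratin genes Krt14 and Krt19 brought that sum to 18.6 CPM.

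**Figure D1:**
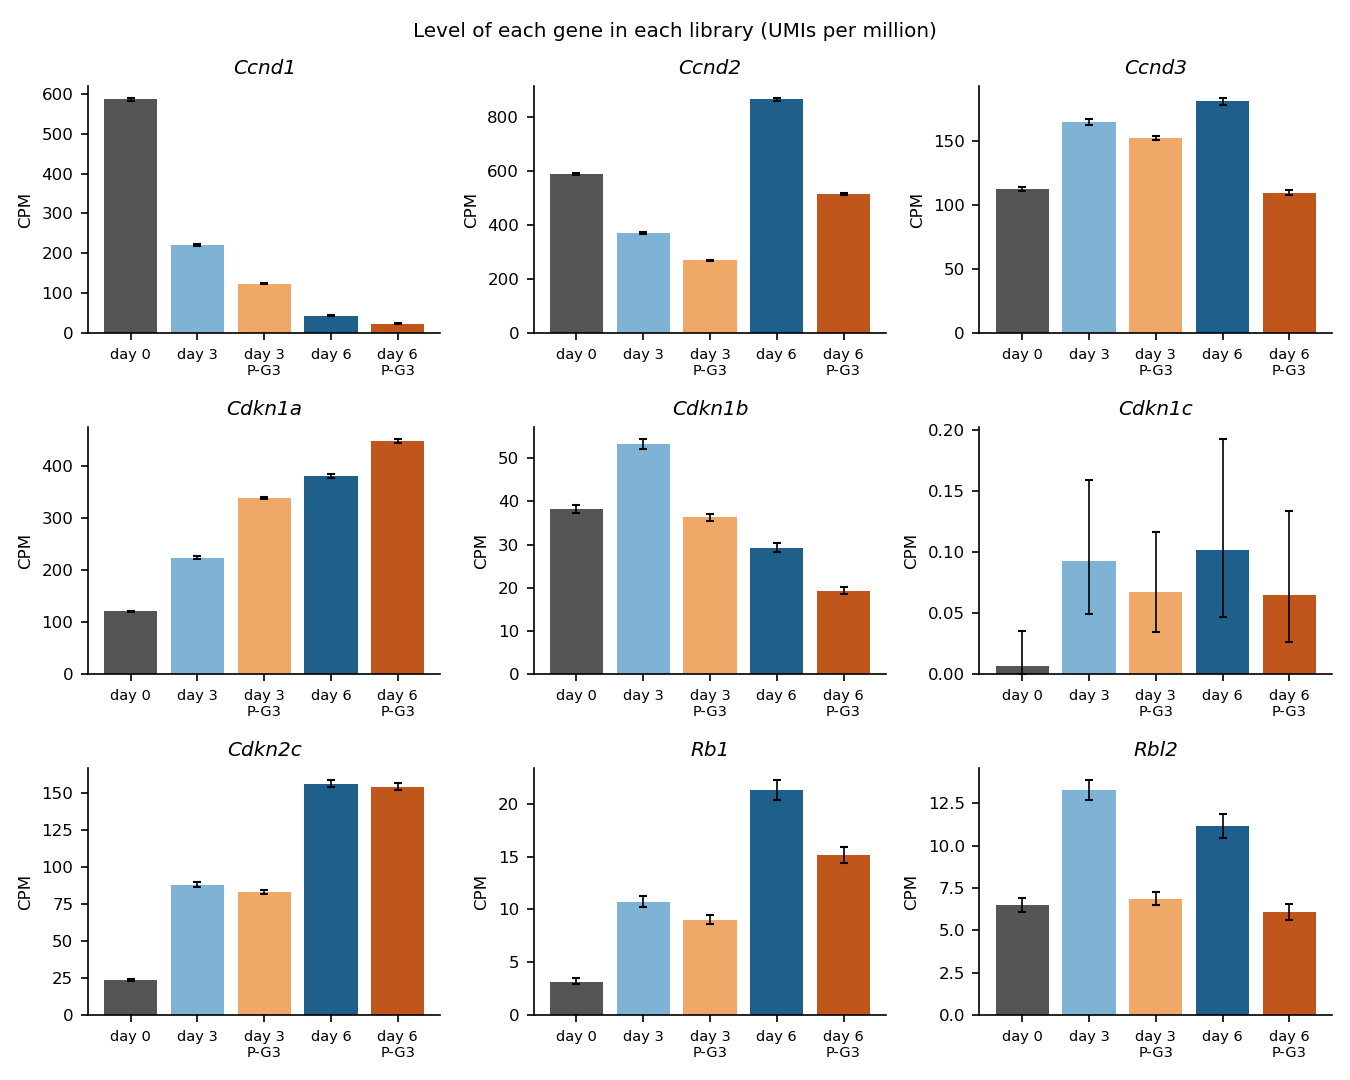
Level of each of the 9 genes (CPM, y axis from 0, scaled separately for each gene) in the 5 libraries (x axis). Bars are the sum over all kept cells and error bars are exact Poisson 95% intervals; Ccnd1 is at 586 CPM on day 0 but 43.2 CPM in untreated cells of day 6, whereas Cdkn2c goes from 23.7 to 157 CPM.

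Among the D-type cyclins, Ccnd1 (chr7:144929931-144939925, minus strand) was highest before induction and low on day 6. Its level was 586 CPM before induction, 220 CPM (untreated) and 123 CPM (P-G3) on day 3, and 43.2 CPM (untreated) and 23.6 CPM (P-G3) on day 6. The counting intervals of the 5 libraries do not overlap, and the order from high to low follows the days, with the P-G3 library below the untreated one on each day. In such summed counts, fewer cells with a transcript and less of it per cell cannot be told apart. Day 3 untreated was 2.66-fold lower than day 0 (interval 2.63 to 2.70), and day 6 untreated was 13.6-fold lower than day 0 (13.1 to 14.0). Cyclin D1 is the D cyclin most closely tied to mitogen signals in fibroblasts.

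Ccnd2 (chr6:127125162-127152193, minus strand) went the other way late in the course. It was at 588 CPM before induction, 371 CPM (untreated) and 269 CPM (P-G3) on day 3, and 865 CPM (untreated) and 514 CPM (P-G3) on day 6. The untreated course thus had its lowest value on day 3, and day 6 untreated was the highest of the 5 libraries. Day 6 was 2.33-fold above day 3 in untreated cells (interval 2.30 to 2.35) and 1.91-fold above it with P-G3 (1.89 to 1.93).

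Ccnd3 (chr17:47505051-47599691, plus strand), which codes for the D cyclin often found in differentiated cells, varied less than the other two. Its level was 113 CPM before induction, 165 CPM (untreated) and 152 CPM (P-G3) on day 3, and 181 CPM (untreated) and 110 CPM (P-G3) on day 6. Day 6 with P-G3 and day 0 had overlapping intervals, 108 to 112 CPM and 111 to 114 CPM. Day 6 untreated was 1.61-fold above day 0 (interval 1.57 to 1.64).

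The make-up of the D cyclin transcripts therefore differed between libraries. Their sum was 1287 CPM before induction, 756 CPM (untreated) and 545 CPM (P-G3) on day 3, and 1089 CPM (untreated) and 647 CPM (P-G3) on day 6. Ccnd1 made up 45.6% of the summed UMIs on day 0 (Clopper-Pearson 95% interval 45.3% to 45.8%), 29.1% on day 3 untreated and 3.97% on day 6 untreated (3.85% to 4.09%). Ccnd2 made up 45.7%, 49.1% and 79.4% of it in the same 3 libraries, and Ccnd3 8.75%, 21.8% and 16.6%. With P-G3 the shares on day 6 were 3.64%, 79.4% and 16.9% for Ccnd1, Ccnd2 and Ccnd3. On day 3 with P-G3 they were 22.6%, 49.4% and 27.9%. The capture of each transcript near its 3′ end differs between genes, so the shares are not compared between genes. The P-G3 libraries also differ from the untreated ones by a trend along transcript length, and Ccnd2, Ccnd1 and Ccnd3 have transcripts of 6330, 3740 and 2113 bases, so their shares are not compared with those of untreated cells.

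Of the inhibitor genes for which folds are given, the widest range was that of Cdkn2c (chr4:109660876-109667189, minus strand), which codes for the INK4 protein p18. It was at 23.7 CPM before induction, 88.2 CPM (untreated) and 83.1 CPM (P-G3) on day 3, and 157 CPM (untreated) and 154 CPM (P-G3) on day 6. Each later day was above the one before, and the intervals of the 2 day 6 libraries overlapped (154 to 159 and 152 to 157 CPM). Day 3 untreated was 3.72-fold above day 0 (interval 3.59 to 3.86), and day 6 untreated was 6.61-fold above day 0 (6.37 to 6.85).

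Cdkn1a (chr17:29090976-29100727, plus strand), which codes for p21, an inhibitor induced by p53 and by many differentiation signals, was also higher at each later day. Its level was 120 CPM before induction, 224 CPM (untreated) and 338 CPM (P-G3) on day 3, and 380 CPM (untreated) and 448 CPM (P-G3) on day 6. The 5 intervals do not overlap, and Cdkn1a was the member that was higher with P-G3 than without it on both days. Day 3 untreated was 1.86-fold above day 0 (interval 1.83 to 1.89), and day 6 untreated was 3.16-fold above it (log2 ratio 1.65).

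Cdkn2c and Cdkn1a are the inhibitor genes that were higher on both later days, so their start regions are shown. RefSeq promoter windows of GRCm38.p6 (250 bases before to 50 after an annotated start) were at hand for 5 of the 9 genes, as 8 windows. They were searched on both strands for 7 motifs chosen after the levels were known. These were E2F (TTTGGCGC, TTTCCCGC, TTTCGCGC or TTTGCCGC), the cell cycle homology region bound by DREAM (TTTGAA or TTCGAA), the GC box (GGGCGG), FOXO (GTAAACA), C/EBP (TTGCNNAA), the glucocorticoid receptor (GNACA and TGTNC with 3 bases between them) and the p53 half-site. Both genes have 2 annotated starts, and counts of 3′ ends do not tell which was used. In the lines below capitals mark motif matches, none of which overlap.
Cdkn2c upstream start, chr4:109666707-109667006, minus strand: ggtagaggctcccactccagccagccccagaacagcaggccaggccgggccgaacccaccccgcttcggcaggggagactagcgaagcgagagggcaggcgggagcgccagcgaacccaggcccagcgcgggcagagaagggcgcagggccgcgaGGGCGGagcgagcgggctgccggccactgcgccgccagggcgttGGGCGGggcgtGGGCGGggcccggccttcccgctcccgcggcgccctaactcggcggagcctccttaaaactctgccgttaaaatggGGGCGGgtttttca
Cdkn2c downstream start, chr4:109665323-109665622, minus strand: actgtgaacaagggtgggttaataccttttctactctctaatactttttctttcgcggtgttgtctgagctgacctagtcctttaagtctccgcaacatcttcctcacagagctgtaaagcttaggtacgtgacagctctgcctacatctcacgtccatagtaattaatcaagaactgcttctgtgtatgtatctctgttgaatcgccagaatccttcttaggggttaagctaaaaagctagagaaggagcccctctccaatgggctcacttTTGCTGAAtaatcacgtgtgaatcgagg
Cdkn1a upstream start, chr17:29090729-29091028, plus strand: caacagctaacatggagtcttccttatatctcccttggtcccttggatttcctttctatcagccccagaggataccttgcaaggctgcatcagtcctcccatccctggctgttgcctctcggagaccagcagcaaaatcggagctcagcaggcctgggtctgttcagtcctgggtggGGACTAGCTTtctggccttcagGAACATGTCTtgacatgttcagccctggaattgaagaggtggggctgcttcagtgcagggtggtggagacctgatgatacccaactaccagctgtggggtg
Cdkn1a downstream start, chr17:29093519-29093818, plus strand: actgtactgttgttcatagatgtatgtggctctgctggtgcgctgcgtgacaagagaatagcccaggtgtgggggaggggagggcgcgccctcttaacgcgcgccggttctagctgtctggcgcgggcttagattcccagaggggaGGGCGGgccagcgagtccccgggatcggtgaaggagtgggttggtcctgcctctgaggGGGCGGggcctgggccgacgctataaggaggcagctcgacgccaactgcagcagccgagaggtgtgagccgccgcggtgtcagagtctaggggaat
The upstream Cdkn2c window held 4 GC boxes and had a GC content of 73.3%, whereas the downstream window, with a GC content of 44.0%, held 1 C/EBP match, TTGCTGAA, 22 bases after the start. The upstream Cdkn1a window held 2 p53 half-site matches, GGACTAGCTT and GAACATGTCT, that begin 73 and 51 bases before the start. Its downstream window held 2 GC boxes. Among all 32851 windows of this length, 35.7% held a GC box, 10.8% a C/EBP match and 8.36% a p53 half-site match. Of the other members, the Cdkn1b and Rbl2 windows each held 1 GC box and both Ccnd3 windows 2, so GC boxes were not particular to Cdkn2c and Cdkn1a. The Rbl2 window held a cell cycle homology match 201 bases before the start, as 19.2% of all windows do. The upstream Ccnd3 window held a FOXO match 243 bases before it, as 3.65% of all windows do. No E2F or glucocorticoid receptor match lay in any of the 8 windows, as against 2.26% and 0.475% of all windows. A match is only a stretch of letters, and no binding was measured here.

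The other CIP/KIP genes did not follow Cdkn1a. Cdkn1b (chr6:134920401-134925513, plus strand), the gene of p27, was at 38.2 CPM before induction, 53.3 CPM (untreated) and 36.3 CPM (P-G3) on day 3, and 29.3 CPM (untreated) and 19.3 CPM (P-G3) on day 6. It was highest on day 3 untreated and lowest on day 6 with P-G3, and day 6 untreated was 1.82-fold lower than day 3 untreated (interval 1.74 to 1.90). The p27 protein is known to be set largely by its breakdown through SKP2, which transcript counts do not show. Cdkn1c (chr7:143458339-143461050, minus strand), the imprinted gene of p57, had 1, 13, 12, 9 and 7 UMIs in the 5 libraries in the order of the first paragraph, at most 0.102 CPM, and no fold is given for it.

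Both pocket protein genes were at low levels, and Rb1 (chr14:73183673-73325822, minus strand) was higher on each later day. It was at 3.18 CPM before induction, 10.7 CPM (untreated) and 9.03 CPM (P-G3) on day 3, and 21.3 CPM (untreated) and 15.2 CPM (P-G3) on day 6. Day 6 untreated was 6.71-fold above day 0 (interval 6.08 to 7.42), from 504 and 1884 UMIs. RB1 is known for a role in adipocyte differentiation besides its role in the cell cycle. Rbl2 (chr8:91070057-91123844, plus strand) was at 6.48 CPM before induction, 13.3 CPM (untreated) and 6.86 CPM (P-G3) on day 3, and 11.1 CPM (untreated) and 6.06 CPM (P-G3) on day 6. It was about the same in the P-G3 libraries and on day 0, with intervals that overlap, and higher in both untreated induced libraries. Day 3 untreated was 2.05-fold above day 0 (interval 1.90 to 2.21).

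To set the members against all genes, the log2 ratio of CPM + 1 was taken, which understates the difference of genes with low levels. A gene was counted as higher or lower when it differed by at least 2-fold and had at least 20 CPM in either library. From day 0 to day 3 untreated, Cdkn2c (log2 ratio 1.85) was the 1 gene higher and Ccnd1 (−1.41) the 1 gene lower of the 6 members above 20 CPM, while 6.09% of all genes were higher and 3.8% lower. From day 3 to day 6 untreated, Ccnd2 (1.22) was higher and Ccnd1 (−2.32) lower among 7 members, while 7.82% and 5.05% of all genes were. From day 0 to day 6 untreated, Cdkn2c (2.67), Rb1 (2.42) and Cdkn1a (1.65) were higher and Ccnd1 (−3.73) was lower among 7 members, while 16.6% and 10% of all genes were. From day 3 to day 6 with P-G3, Ccnd1 (−2.34) was lower and none was higher among 6 members, while 5.99% and 7.02% of all genes were. Ccnd2 had a ratio of 0.93 there, which passed 2-fold with a trend along transcript length removed (1.02) or with median-of-ratios scaling (1.04). With all deposited barcodes in place of the kept cells, the day 6 to day 0 ratios were −3.79 for Ccnd1, 2.66 for Cdkn2c and 1.61 for Cdkn1a. The 3 untreated comparisons share libraries, so they are not independent.

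**Figure D2:**
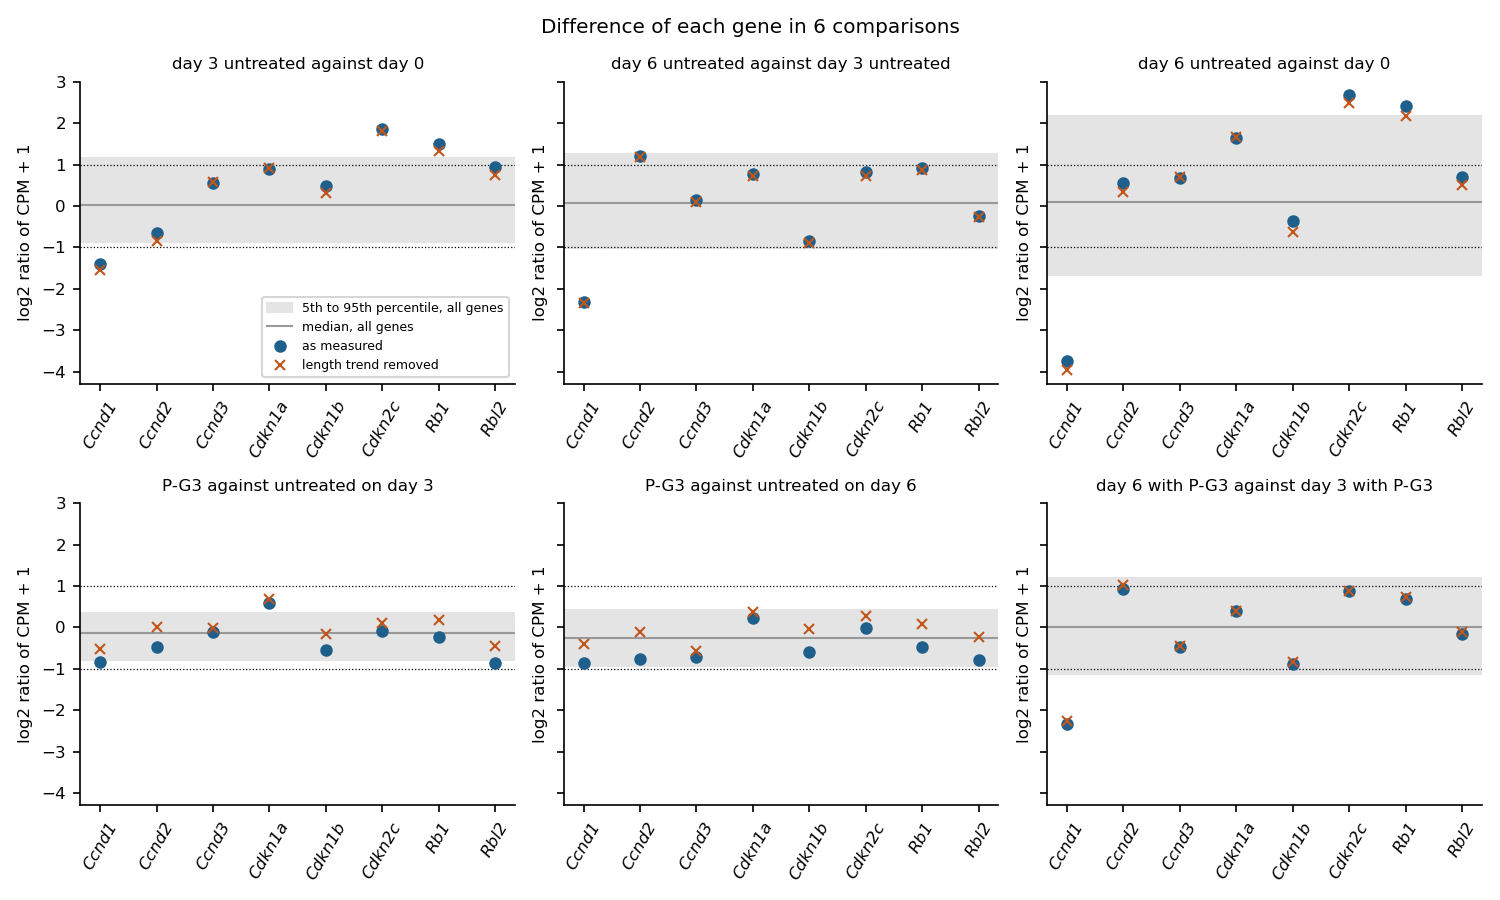
Log2 ratio of CPM + 1 (y axis) of 8 members (x axis; Cdkn1c left out at its low counts) in 6 comparisons of 2 libraries each. Circles are as measured, crosses have the trend along transcript length removed, the band spans the 5th to the 95th percentile of genes with at least 20 CPM, and dotted lines mark 2-fold; Ccnd1 lies below the band in the 4 comparisons between days and in both P-G3 panels Cdkn1a is the circle furthest above 0.

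With P-G3, 7 of the 8 members above 5 CPM were lower and 1 was higher than untreated on each day, and none differed by 2-fold. The counts past 2-fold were 0 of 6 members on day 3, where 0.129% of all genes were higher and 2.15% lower, and 0 of 7 on day 6, where 0.126% were higher and 3.43% lower. These comparisons carry a trend in which long transcripts had lower ratios, with a Spearman correlation of −0.605 over 9210 genes on day 3 and −0.623 over 9132 genes on day 6. The median of all genes above 5 CPM was itself below 0, at −0.23 on day 3 and −0.34 on day 6. Scaling by TMM (trimmed mean of M values) brought it to −0.003 and −0.02. The median of the 8 members was −0.34 and −0.65 as measured, and −0.003 and −0.08 with the length trend removed. The count of 7 lower members is as measured. Each P-G3 ratio of a member below is therefore given also without the length trend or with TMM scaling. The cause of that trend was not tested.

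Ccnd1 was lower with P-G3 under each scaling and without the trend. Its ratio was −0.83 on day 3 (−0.52 without the trend, −0.59 with TMM scaling) and −0.85 on day 6 (−0.40 and −0.52). It was 1.79-fold lower on day 3 (interval 1.75 to 1.82) and 1.83-fold lower on day 6 (1.74 to 1.93) as measured. Preadipocyte markers were lower with it, with 10 of 11 measured markers lower on each day. Their summed level was 2689 CPM (untreated) and 1483 CPM (P-G3) on day 3 and 1985 and 993 CPM on day 6. Their median log2 ratio was −0.84 on day 3 and −1.14 on day 6, as against −0.23 and −0.34 over all genes. Without the trend the marker median was −0.33 and −0.83. The part of these markers in the Ccnd1 difference was not tested. Giving each cell the same weight made the day 6 ratio of Ccnd1 −1.02, past 2-fold. Cdkn1a was higher, by 0.59 on day 3 (0.69 without the trend, 0.83 with TMM scaling) and 0.24 on day 6 (0.38 and 0.57). Rbl2 was lower, with −0.86 on day 3 (−0.45 without the trend) and −0.78 on day 6 (−0.24).

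The size of these ratios depended on that trend too, and for some of the other members the sign did as well, or turned with the scaling. Ccnd2 had −0.46 on day 3 and −0.75 on day 6, which became 0.01 and −0.12 without the trend. Cdkn1b had −0.54 and −0.58, which became −0.15 and −0.04. Rb1 had −0.23 and −0.46, which became 0.17 and 0.08. Ccnd3 had −0.11 on day 3, which turned to 0.12 with TMM scaling, and −0.72 on day 6, which stayed below 0 at −0.57 without the trend and −0.38 with TMM scaling. Cdkn2c had −0.09 and −0.02, against 0.10 and 0.27 without the trend and 0.15 and 0.32 with TMM scaling, so no direction is given for it.

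The members were next compared between cells rich in G2/M transcripts and the other cells of the same library. Cells with at least 10000 UMIs were thinned to 10000, and a cut at 24.1 UMIs summed over 54 G2/M genes, none of them a member, split them into a G2/M-high and a G2/M-low range. The G2/M-high range held 48.0% of such day 0 cells (interval 46.2% to 49.7%), 34.2% (untreated) and 37.9% (P-G3) of those of day 3 and 6.68% and 5.85% of those of day 6. This is a range and not a cell type, and 28.3% of the day 0 cells and 9.28% to 15.5% of the others lay within 1.5-fold of the cut. G2/M-high cells also held more UMIs, with a median of 53908 against 41638 on day 0. No doublets were removed.

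Cdkn1a was lower in G2/M-high cells on day 0, at 86.9 CPM against 159 CPM (log2 ratio −0.87, interval −0.92 to −0.83). The day 3 values were 198 against 242 CPM (untreated) and 332 against 344 CPM (P-G3), and the day 6 values 296 against 390 CPM (untreated) and 401 against 457 CPM (P-G3). The log2 ratios of the 4 induced libraries were −0.29, −0.05, −0.40 and −0.19 in that order, all nearer to 0 than on day 0. On day 3 with P-G3 it ran from −0.13 to 0.04 under other cuts, depths and weights, so its sign was not settled. Cells of the day 0 library that were low in both the G2/M and the S phase list had 206 CPM, and those high in the S phase list and low in the G2/M list 104 CPM. In every library Cdkn1a was lower in the S-high than in the doubly low cells, for example 242 against 398 CPM on day 6 untreated.

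Cdkn1b was higher in G2/M-high cells on day 3, at 63.4 against 46.1 CPM untreated (log2 ratio 0.45) and 45.8 against 28.7 CPM with P-G3 (0.66). Under other cuts, depths and weights these ratios ran from 0.16 to 0.70 and from 0.28 to 0.82. On day 0 the ratio was 0.13, and on day 6 it was −0.33 untreated and 0.14 with P-G3. Cdkn2c was somewhat higher in G2/M-high cells on day 0 (26.4 against 20.6 CPM, 0.34) and lower on day 6, at 110 against 160 CPM untreated (−0.54) and 105 against 156 CPM with P-G3 (−0.57). Under other cuts and depths the day 0 ratio of Cdkn2c ran from −0.08 to 0.52.

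Ccnd1 was little different between the ranges on days 0 and 3, with ratios of 0.23, 0.09 and −0.10. On day 6 it was higher in G2/M-high cells, at 67.9 against 41.7 CPM untreated (0.69, and 0.11 to 1.32 under other cuts, depths and weights) and 55.5 against 21.9 CPM with P-G3 (1.30). The last was the 1 of 6 members past 2-fold upward in that library, where 5.89% of all genes were, and with the cut halved or doubled it was under 2-fold. Downward no member passed 2-fold there, as against 1.01% of all genes. In the other 4 libraries no member differed by 2-fold between the ranges. Of all genes, 4.22% were higher and 0.132% lower in G2/M-high cells of day 0, 5.31% and 0.627% in untreated and 5.3% and 0.576% in P-G3 cells of day 3, and 5.88% and 1.68% in untreated cells of day 6. The S-high cells of day 6 untreated, 68 in number, had 184 CPM of Ccnd1 against 34.0 CPM in the 1370 doubly low cells. Adipocyte genes differed with these ranges, at 5259 CPM summed in those S-high cells and 9052 CPM in the doubly low ones, and their part in the Ccnd1 difference was not tested.

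**Figure D3:**
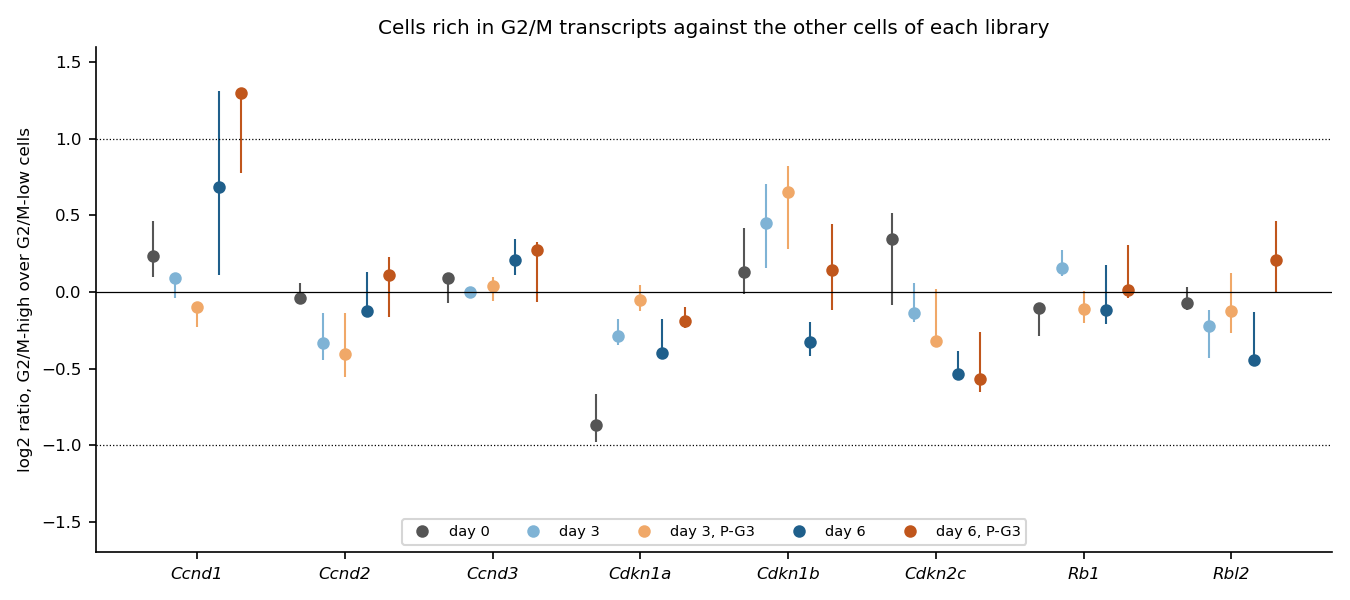
Log2 ratio (y axis) of 8 members (x axis) in G2/M-high over G2/M-low cells of each library. Points are the main values and vertical lines span the values under other cuts, depths and thinnings; Cdkn1a on day 0 lies at −0.87 and Ccnd1 on day 6 with P-G3 at 1.30.

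With G2/M-high cells left out, most differences between days were of similar size and those of Cdkn1a were smaller. In G2/M-low cells the log2 ratio of day 6 to day 0 was −3.65 for Ccnd1 (−3.73 in all cells), 2.90 for Cdkn2c (2.67), 2.38 for Rb1 (2.42), 0.55 for Ccnd2 (0.56) and 1.29 for Cdkn1a (1.65). Of 7 members, 3 were at least 2-fold higher and 1 lower there, as against 17.3% and 8.48% of all genes. With S-high cells left out too, the Cdkn1a ratio was 0.95, under 2-fold. From day 0 to day 3 untreated, the Cdkn1a ratio was 0.89 in all cells, 0.60 in G2/M-low cells and 0.31 in cells low in both lists. From day 3 to day 6 untreated, that of Cdkn1b was −0.84 in all cells and −0.61 in G2/M-low cells.

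Within the induced libraries the members also differed along the adipocyte programme. Cells with at least 10000 UMIs were ranked by the fixed list of 18 adipocyte genes and divided into 5 equal bins in each library. On day 6 such cells were 1541 of 2468 kept cells untreated and 1881 of 3546 with P-G3, and they held 97.4% and 95.9% of the UMIs. The scores of a bin differ between libraries, so bins are compared within a library. No member or cell cycle gene is in the list. Deeper cells sat in the higher bins, with a median of 33786 UMIs in the lowest and 68226 in the highest bin of day 6 untreated.

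Ccnd1 was lower in each higher bin of all 4 libraries. On day 6 untreated it was at 196, 72.2, 14.97, 7.13 and 1.80 CPM from the lowest to the highest bin, and with P-G3 at 67.6, 41.4, 22.3, 9.69 and 2.56 CPM. On day 3 it went from 355 to 64.6 CPM untreated and from 192 to 37.1 CPM with P-G3. Thinned to 10000 UMIs, 55.0% of the cells in the lowest day 6 untreated bin and 1.62% in the highest had a Ccnd1 UMI. The last value is an upper limit for what free RNA adds to such a share there. Cfd, an adipocyte gene left out of the list as a probe of free RNA, was at 39.8 CPM in the lowest and 1684 CPM in the highest of these bins.

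Cdkn2c ran against Ccnd1. On day 6 untreated it was at 39.3, 68.5, 116, 168 and 304 CPM from the lowest to the highest bin, and with P-G3 at 38.2, 86.8, 128, 183 and 263 CPM. On day 3 the first 4 bins lay between 55.1 and 59.9 CPM untreated, and the fifth stood apart at 164 CPM. With P-G3 the first 4 lay between 43.3 and 61.0 CPM and the fifth at 159 CPM. Rb1 was also higher in the upper bins, with 7.72 CPM in the lowest and 27.7 CPM in the highest bin of day 6 untreated, and 6.64 and 16.9 CPM on day 3 untreated.

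Cdkn1a was higher and Cdkn1b lower in the upper bins. Cdkn1a went from 140 to 323 CPM (untreated) and 233 to 425 CPM (P-G3) on day 3, and from 233 to 455 CPM (untreated) and 371 to 472 CPM (P-G3) on day 6. Cdkn1b went from 67.5 to 31.2 CPM, 48.8 to 23.5 CPM, 55.5 to 13.4 CPM and 32.1 to 13.8 CPM in the same libraries, and was lower in each higher bin of each. Ccnd2 differed less, with log2 ratios of highest over lowest bin between 0.27 and 0.77. Ccnd3 had 0.27 and 0.14 on day 3 and −0.37 and −0.33 on day 6, with its peak in the second bin on day 6.

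Between the highest and the lowest bin, 2 members were at least 2-fold higher (Cdkn1a, Cdkn2c) and 2 lower (Ccnd1, Cdkn1b) of 6 on day 3 untreated, as against 8.5% and 9.6% of all genes. On day 6 untreated 2 were higher (Cdkn2c, Rb1) and 2 lower (Ccnd1, Cdkn1b) of 7, as against 15% and 12.2%. With P-G3, Cdkn2c was higher and Ccnd1 and Cdkn1b lower of 6 on both days, as against 12.2% and 9.1% of all genes on day 3 and 16.1% and 8.54% on day 6. The share of G2/M-high cells differed between bins, from 48.5% in the lowest to 24.0% in the third on day 3 untreated. In G2/M-low cells alone the ends remained apart, with Ccnd1 at 348 and 58.1 CPM and Cdkn2c at 51.6 and 180 CPM on day 3 untreated. In P-G3 cells of day 3 the ends of Ccnd1 were at 189 and 28.2 CPM. There Ccnd1 rose at 2 steps between neighbouring bins and fell at 2, so its order from bin to bin was lost. Cdkn1b rose at 1 such step in each day 3 library. Cdkn1b was then at 33.8 and 20.2 CPM in P-G3 cells of day 3, under 2-fold, and it was also under 2-fold there when cells were ranked at a depth of 5000 UMIs (−0.92).

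**Figure D4:**
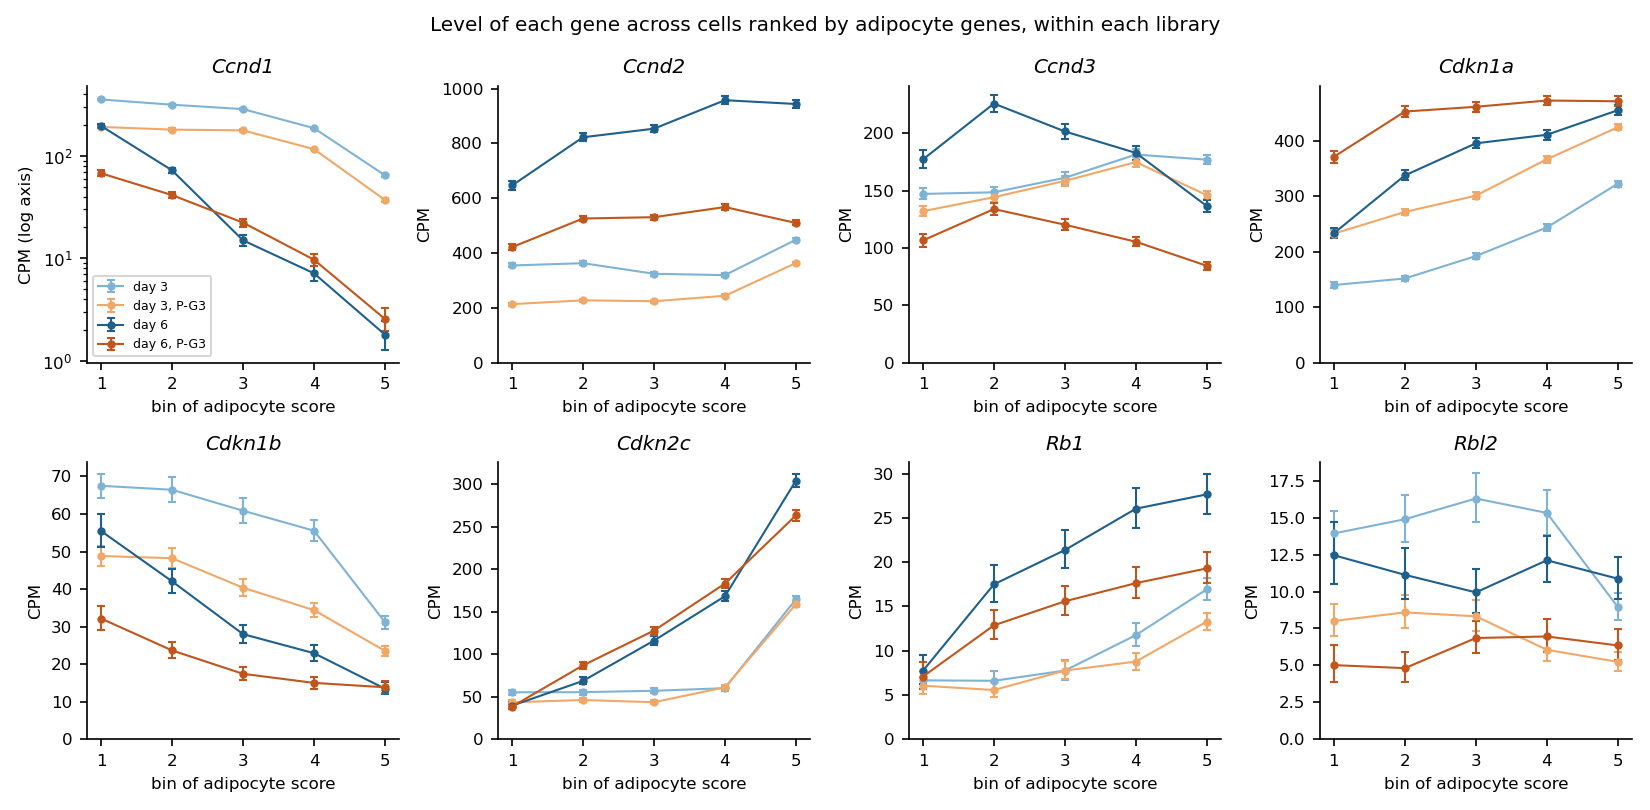
Level (CPM, y axis; log axis for Ccnd1, from 0 for the others) of 8 members in 5 equal bins of cells ranked by 18 adipocyte genes (x axis, 5 is highest) within each induced library. Error bars are exact Poisson 95% intervals; Ccnd1 goes down to 1.80 CPM in the highest day 6 untreated bin, where Cdkn2c reaches 304 CPM.

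Single cells showed how evenly each transcript was spread. At 10000 UMIs per cell, 3.80% of day 0 cells had no Ccnd1 UMI, as against 31.5% (untreated) and 44.0% (P-G3) of day 3 cells and 79.0% and 83.0% of day 6 cells. The 5% of cells with most Ccnd1 held 13.7% of its UMIs on day 0 and 52.4% on day 6 untreated, and 1 day 6 untreated cell had 35 of them. The mean of Ccnd1 was 5.64 UMIs per cell on day 0 and 0.485 on day 6 untreated. A lower mean raises such a share by counting alone. Ccnd2 was spread over most cells of each library. It was absent from 3.14% of day 0 cells, 11.6% (untreated) and 18.0% (P-G3) of day 3 cells and 1.88% and 5.10% of day 6 cells.

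Cdkn1a was unevenly spread on day 0, with no UMI in 50.5% of cells and up to 65 UMIs in 1 cell. The variance over the mean was 3.98 there, and 2.38 to 2.75 in the induced libraries. Its mean was also lower on day 0, at 1.25 UMIs per cell as against 2.16 to 4.47. The 5% of day 0 cells with most Cdkn1a held 30.6% of its UMIs, as against 14.8% to 21.6% in the induced libraries. Of these 159 cells 23.9% were G2/M-high, as against 49.3% of the other 3023. Their Ccnd1 was at 566 CPM (interval 549 to 584) and that of the others at 587 CPM (584 to 591). Rb1 was at 6.61 CPM (4.88 to 8.77) in them and 3.01 CPM (2.74 to 3.30) in the others. On day 6 untreated, the 77 cells with most Cdkn1a held no G2/M-high cell. Their Ccnd1 was at 6.23 CPM (4.17 to 8.94) as against 46.2 CPM in the other 1464. Ccnd1 was also lower and Cdkn1a higher in the upper adipocyte bins, and their part in this difference was not tested. On day 3 untreated 18.2% of the cells with most Cdkn1a were G2/M-high, as against 35.1% of the others. With P-G3 the shares were close, at 35.3% and 38.1% on day 3 and 6.38% and 5.82% on day 6. Cells picked for a high Cdkn1a count also hold chance counts of it, so its own level in them is not given.

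**Figure D5:**
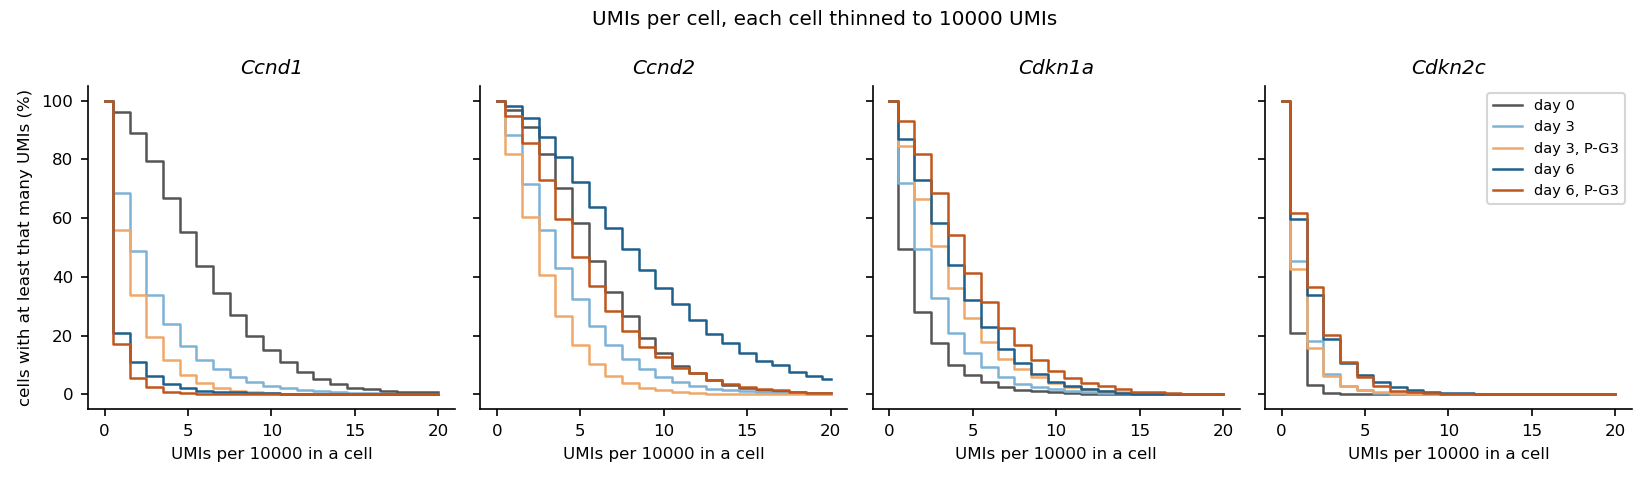
Share of cells (%, y axis) with at least a given number of UMIs of Ccnd1, Ccnd2, Cdkn1a and Cdkn2c (x axis, UMIs of 10000 per cell) in each library. The Ccnd1 curve of day 0 starts at 96.2% of cells for 1 UMI and that of day 6 untreated at 21.0%, whereas the Cdkn2c curves of day 6 lie above that of day 0.

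The genes of the kinases that D cyclins bind, the INK4 genes other than Cdkn2c, and Cdc37 were all lower on day 6 than on day 0 untreated. This list pools kinases with their inhibitors, so its counts and median have no single reading. Of 6 genes, Cdk4, Cdk6, Cdkn2a, Cdkn2b, Cdkn2d and Cdc37, none was at least 2-fold higher and 2 were lower in untreated cells, as against 16.6% and 10% of all genes, with a median log2 ratio of −0.90 as against 0.13 over all genes above 5 CPM. Cdk4, the kinase itself, was at 476 CPM on day 0, 339 CPM on day 3 untreated and 212 CPM on day 6 untreated (log2 ratio of day 6 to day 0 −1.16). Cdkn2b, the INK4 gene of p15, was at 55.8, 45.7 and 25.1 CPM (−1.12). Cdkn2a, which codes for p16 and p19ARF, was at 555, 433 and 318 CPM (−0.80). Cdkn2c was thus higher on day 6 while the other INK4 genes were lower, Cdkn2d included at 21.5, 32.5 and 16.3 CPM. With P-G3 on day 3, Cdkn2b was at 19.9 CPM, under the untreated 45.7 CPM (−1.16, and −1.25 without the length trend). With TMM or median-of-ratios scaling the ratio was under 2-fold (−0.92 and −0.89), and on day 6 it was −0.46 as measured.

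Genes downstream of the D cyclins were mostly lower on day 6. Of 5 genes of the cyclin E and A list above 20 CPM, 3 were at least 2-fold lower on day 6 than on day 3 untreated and none was higher, as against 5.05% and 7.82% of all genes. Ccna2, the cyclin of S and G2 phase, was at 52.0 CPM on day 0, 55.6 CPM on day 3 and 9.46 CPM on day 6 (log2 ratio of day 6 to day 3 −2.44). Skp2, which marks p27 for breakdown, was at 28.6, 20.3 and 8.67 CPM. Of 6 genes of the E2F and DREAM list tested from day 0 to day 6, 2 were lower and none was higher, as against 10% and 16.6% of all genes. These were E2f1, an activating E2F, at 44.2, 32.3 and 14.97 CPM, and Mybl2, the MYB protein that joins the MuvB core in dividing cells, at 22.4, 10.5 and 2.97 CPM. Rbl1, the gene of p107, was at 9.70, 8.44 and 8.33 CPM, and E2f4, the E2F of the DREAM complex, at 56.8, 38.9 and 40.1 CPM.

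The list of p53 and its known target genes had members in both directions. From day 0 to day 6 untreated, 5 of 18 tested were at least 2-fold higher and 4 lower, as against 16.6% and 10% of all genes, with a median log2 ratio of 0.38 over 26 genes as against 0.13 over all genes. Ddit4 (2.33), which restrains mTORC1, and Dcxr (2.20), a reductase, were among those higher, and Plk2 (−2.59) and Ckap2 (−2.51) among those lower. Ckap2 is also in the G2/M list, and Ddit4 is also known as a glucocorticoid target. Mdm2, which codes for the ubiquitin ligase of p53, was at 1234, 1648 and 2357 CPM, and Trp53 itself at 141, 80.8 and 46.1 CPM on days 0, 3 and 6 untreated. With P-G3 on day 3 none of 14 tested genes of this list was at least 2-fold higher and 1 was lower, as against 0.129% and 2.15% of all genes.

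FOXO factors are known to raise Cdkn1b and Rbl2. Of 9 tested genes of the list of these factors and their targets, 7 were at least 2-fold higher on day 6 than on day 0 in untreated cells and none was lower, as against 16.6% and 10% of all genes. Their median log2 ratio was 1.48 over 13 genes, as against 0.13 over all genes. Foxo1 was at 6.04, 24.9 and 35.8 CPM on days 0, 3 and 6 untreated. Klf15 (39.4 CPM on day 6, 2.23 CPM on day 3), Bnip3 (372 and 80.7 CPM) and Gadd45a (64.0 and 13.8 CPM) had the largest ratios from day 3 to day 6. Several of these are also known as adipocyte, hypoxia or stress genes. Cdkn1b was at 38.2, 53.3 and 29.3 CPM and Rbl2 at 6.48, 13.3 and 11.1 CPM on days 0, 3 and 6 untreated. The part of FOXO factors in these levels was not tested.

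A list of 18 genes of mitogen and related growth signals went in both directions. Its genes were Myc, Fos, Fosl1, Jun, Junb, Jund, Egr1, Ets1, Ets2, Ctnnb1, Lef1, Tcf7l1, Tcf7l2, Yap1, Wwtr1, Dusp6, Spry2 and Spry4. Not all of them are induced by mitogens or regulate cyclin D genes. From day 0 to day 6 untreated, 6 of 16 tested were at least 2-fold higher and 1 lower, as against 16.6% and 10% of all genes. Jun, a subunit of AP-1, was at 112, 43.4 and 35.3 CPM and Fosl1, another, at 32.0, 13.4 and 72.4 CPM on days 0, 3 and 6. With P-G3 on day 6, Egr1, an immediate early gene, was at 28.9 CPM as against 127 CPM untreated (log2 ratio −2.10, −1.55 without the length trend), and Junb at 22.6 as against 66.3 CPM (−1.51 and −1.44). These were the 2 of 14 tested that were at least 2-fold lower, and none was higher, as against 3.43% and 0.126% of all genes. With P-G3 on day 3, 1 of 13 was higher and 2 were lower, as against 0.129% and 2.15% of all genes. Fosl1 was at 28.0 as against 13.4 CPM untreated (1.01 as measured, barely past 2-fold, with its values under other settings not given). Egr1 was at 20.6 as against 63.0 CPM (−1.57, −1.17 without the length trend). Ets1 was at 13.0 as against 32.1 CPM (−1.24, but −0.83 without the length trend). Early response genes can also be set off by dissociation of cells with trypsin, which was used here, and its part was not tested.

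For each member the 2 genes with the most similar profile were found among 6045 genes, over 10 points (the G2/M-high and G2/M-low cells of the 5 libraries), by the root mean square difference of centred log2 levels. Ccnd1 was nearest to Plekho1 (0.37) and Tm4sf1 (0.39), a membrane protein that went from 196 CPM on day 0 to 13.0 CPM on day 6 untreated. Cdkn2c was nearest to Pxmp4 (0.18), of the peroxisome, and Cpt2 (0.19), an enzyme of fatty acid oxidation in mitochondria. Rb1 was nearest to Cluh (0.15) and Gpam (0.15), the latter an enzyme of triglyceride synthesis. Cdkn1a was nearest to Ech1 (0.21), an enzyme of fatty acid oxidation, and Cela1 (0.21). Ccnd2 was nearest to Dysf (0.12) and Amotl2 (0.13), Ccnd3 to Klhl42 (0.08) and Daxx (0.10), Cdkn1b to Polr2a (0.22) and Cspp1 (0.24), and Rbl2 to Helz and Adam9 (both 0.15). The points share libraries, so the values only describe these 5 libraries, and a flat profile such as that of Ccnd3 finds a near match more easily.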

How the data were processed

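Single-cell RNA was measured in 5 libraries of 3T3-L1 cells, 1 for each group. For each library the authors deposited raw UMI counts in a sparse matrix (genes by barcodes). The submitters' processing notes give the build as GRCm38 and name Cell Ranger 3.1.0, while the matrix headers name Cell Ranger 5.0.1. The assay counted 3′ ends per the labels' protocols, which name v2 chemistry, whereas the barcodes look like those of v3, and this was not settled.

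Barcodes with at least 500 genes and at most 20% mitochondrial UMIs were kept, which left 88432894 to 179221992 UMIs per library. A count of 3, the limit that a count of 0 allows, was 0.0167 to 0.0339 CPM. Counts were summed per library and scaled to CPM by total. Intervals at 95% are exact Poisson (levels), conditional binomial (ratios of CPM) and Clopper-Pearson (shares), and cover counting error only. Ratios are log2 of CPM with a pseudocount of 1, whereas intervals of folds carry no pseudocount. Cells of at least 10000 UMIs were thinned to that number for the G2/M, S phase (cut at 10.1 UMIs) and adipocyte rankings, with cuts by Otsu's method. Doublets were not removed, and an alternative dropped the 5% of cells highest in UMIs. Transcript lengths were those of GENCODE vM21, matched for 32158 of 32285 genes, and the length trend was removed as the median of 20 length bins. TMM factors came from edgeR 4.0.16 in R 4.3.3; other steps used Python 3.11.15, numpy 2.4.6 and scipy 1.17.1. The ratios, intervals, thinning and cut were tested on simulated data.

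The members, lists, motifs and comparisons were chosen with earlier results of these data known. From each list and comparison, up to 4 genes above 20 CPM with the largest ratios could be named, along with the 2 nearest profiles for each member, and other list genes are given as levels only. The median of a list covers genes above 5 CPM. Gene positions are those of GRCm38.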

Additional observations from a re-analysis of the deposited data

Results flagged for a closer look

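Ccnd3 differed in its direction from day 3 to day 6 between untreated and P-G3 cells. The log2 ratio was 0.13 untreated (165 and 181 CPM) and −0.47 with P-G3 (152 and 110 CPM). Each value rests on 1 library per day, and the difference was not tested. Untreated, the ratio was −0.03 when each cell had the same weight, so that its sign is not settled, while with P-G3 it stayed between −0.49 and −0.36 under 15 alternatives.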

How the results depend on the processing

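The 9 member ratios past 2-fold between libraries kept their sign under each of 15 alternatives (scaling, pseudocount, filters on genes and cells, equal weight per cell, the length trend removed, G2/M-low cells only), as did 44 of all 54 member ratios. Of the 10 that did not, 3 were ratios of Cdkn1c, 1 was that of Ccnd3 from day 3 to day 6 untreated, and the others were P-G3 ratios of Ccnd2, Ccnd3, Cdkn2c and Rb1. Filters on gene level and the 1.5-fold threshold leave a ratio as it is, and a pseudocount cannot turn its sign. Those of the 15 alternatives were therefore no check of the sign. Of 132 alternative counts of members past 2-fold, 120 stayed within 1.5 times the main count. With a threshold of 1.5-fold the counts were 4 for day 3 against day 0, 6 for day 6 against day 3 untreated, 2 and 3 for P-G3 against untreated on days 3 and 6, and 4 for day 6 against day 3 with P-G3, in place of 2, 2, 0, 0 and 1. Of all genes 23.3%, 28.2%, 14.1%, 25.9% and 30% differed by 1.5-fold in these comparisons. Equal weight per cell gave 1 for P-G3 on day 6. For day 6 against day 3 with P-G3 the count was 2 with equal weight per cell, with median-of-ratios scaling and with the length trend removed. Between G2/M-high and G2/M-low cells it was 1 in place of 0 on day 6 untreated at a depth of 5000 UMIs, and 0 in place of 1 on day 6 with P-G3 with the cut halved and with the cut doubled. No paired analysis was possible because each group had 1 library. Depth limits Cdkn1c, at 1 to 13 UMIs per library, and single cells for Rb1 and Rbl2, of which 82.3% or more of cells had no UMI at 10000.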
